A study of Mus musculus with 12 samples.

Results

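The PYHIN genes examined here are a family of interferon-inducible DNA sensors of the mouse. They were chosen by name (Ifi203, Ifi204, Ifi205, Ifi207, Ifi208, Ifi209, Ifi211, Mnda and Aim2), and in part for 1 measured pattern, a lower Ifi208 level in libraries with the knockout label under both treatments. Of the 9 names, 8 were found among the 16920 genes of the tables. RefSeq lists Mnda as an older name of Ifi211, so the set holds 8 genes, and all 8 passed the filter on low counts. RNA-seq had been done on 12 libraries of peritoneal macrophages (PM), cells drawn into the peritoneal cavity and cultured overnight, with 3 libraries in each of 4 groups.

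The groups were WT PM kept in PBS for 6 h (WT PBS), WT PM given 1 µg/mL lipopolysaccharide (LPS, a bacterial cell wall component that activates macrophages through TLR4) for 6 h (WT LPS), and PM labelled Ythdf1-/- under the same treatments (KO PBS and KO LPS). Per the study's methods, both genotypes were C57BL/6 mice of 6 to 10 weeks, and Ythdf1-/- names knockout mice, with no limit to a cell type stated. As the agent that drew in the cells of all groups, the series record gives starch broth and the methods give thioglycollate, and the 2 sources cannot be reconciled here. The record calls the replicates independent biological samples but ties no 2 libraries to the same animal.

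PYHIN proteins pair a pyrin domain, which binds other pyrin domains, with HIN-200 domains that bind DNA. AIM2 binds double-stranded DNA in the cytosol and recruits the adaptor ASC (Pycard) and caspase-1, which leads to release of IL-1β and IL-18. p204 (Ifi204) is a mouse relative of human IFI16, which senses DNA upstream of STING. Several members lack one of the domains, and in mice the family forms a cluster of similar copies whose genes are known to respond to interferon.

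In RefSeq GRCm38.p6 the family occupied chr1:173349547-174031755, a stretch of 682 kb. From lower to higher coordinates the members stood in the order Aim2, Ifi209, Ifi208, Ifi207, Ifi204, Ifi211, Ifi203 and Ifi205. Ifi206, Ifi214, Ifi213, Mndal and Ifi202b, the other family genes in the tables, lay between them. Ifi208 spanned chr1:173673628-173698393. The promoter tables held entries for 7 of the 8 members (Ifi204 is named only) and ran from 250 bases before to 50 bases after each start.

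The stretches shown here are 30 bases of RefSeq sequence that hold the same short element, because it recurs from gene to gene in the cluster. They read 5′ to 3′ along each gene's own strand, and capitals mark the 10 bases closest to GAAATCGAAA. This 10-mer is 1 form of GAAANNGAAA, the core of the interferon-stimulated response element. It was picked after the promoters had been read, as the form most frequent in those of the family. Ifi213 is added for comparison with Ifi208.
Ifi208: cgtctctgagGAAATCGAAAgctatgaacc
Ifi213: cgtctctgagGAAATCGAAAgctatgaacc
Ifi209: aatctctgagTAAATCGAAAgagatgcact
Ifi207: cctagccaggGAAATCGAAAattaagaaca
Ifi203: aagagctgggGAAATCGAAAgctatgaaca
Ifi211: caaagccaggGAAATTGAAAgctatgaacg
Ifi205: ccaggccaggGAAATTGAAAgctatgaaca

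The Ifi208 stretch (chr1:173673597-173673626, plus strand) ended just before the annotated gene and was identical to that of Ifi213 (chr1:173599326-173599355, minus strand). The others lay at chr1:173630770-173630799 (Ifi209, plus strand), chr1:173741831-173741860 (Ifi207, minus), chr1:173942508-173942537 (Ifi203, minus), chr1:173913064-173913093 (Ifi211, minus) and chr1:174031870-174031899 (Ifi205, minus). The stretch of Ifi203 lay inside its gene's annotated span, and those of Ifi207, Ifi211 and Ifi213 reached into theirs, since RefSeq gives these genes a start further upstream as well. Counted from 1 at the 5′ end of the 10-mer, Ifi209 carried G1T, and Ifi211 and Ifi205 carried C6T.

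Read on both strands, GAAANNGAAA was present in the windows of 5 of the 7 members (not Ifi209 or Aim2) and in 3.443% of the 32851 promoter windows of this length. The exact 10-mer GAAATCGAAA stood in 16 windows (0.049%), and 7 of those 16 belonged to family genes (Ifi206, Ifi214, Ifi213, Ifi208, Ifi207, Mndal and Ifi203). Since the 10-mer was picked as the form most frequent in these similar copies, its number among them is no support. With 1 mismatch allowed it stood in 452 windows (1.376%). The closest match in the Aim2 window had 3 mismatches. The core of the gamma-activated site, TTCNNNGAA, was present in 8.298% of all windows and was not found in the windows of the 7 members. These matches describe letters in a window, and binding was not measured.

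Libraries held 21546274 to 22017005 counts, and the members took 0.0346% to 0.6877% of them. Levels are given as CPM, the counts scaled to library size with TMM factors in edgeR. The floor of 3 counts equalled 0.105 to 0.187 CPM, and floors and intervals cover counting error only. The whole-gene Ythdf1 level did not separate the genotypes in the labelled direction, at 41.9 to 45.0 CPM in WT PBS against 55.4 to 58.1 in KO PBS, and 194 to 212 in WT LPS against 192 to 205 in KO LPS. The study made the Ythdf1-/- mice with CRISPR/Cas9, and a whole-gene count does not show which part of the gene was changed. Genotypes are therefore named here by their labels, and why the Ythdf1 level was not lower in KO PBS was not tested. WT LPS replicate 1 stood apart from its group, with a mean chi-square per gene of 23.9 to 30.7 against the other WT LPS libraries and 2.69 to 15.6 for all other pairs within groups. Tests of the members that rest on it are given with and without it, whereas pooled ratios, shares, levels per kb, summed levels and medians include it. The summed level of the 8 macrophage markers was 17200 to 19900 CPM, and that of the B cell markers was 0.311 to 1.92 CPM.

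At rest the family was led by Ifi207 and Ifi204. The Ifi207 level was 141, 133 and 135 CPM in the WT PBS libraries. Ifi207 alone made up 46.3% ± 0.64 (SD, n = 3) of the summed member counts of WT PBS and 49.7% ± 1.5 (SD, n = 3) of those of KO PBS. Ifi204 stood at 71.9, 69.0 and 64.5 CPM in WT PBS and took 23.3% ± 0.69 (SD, n = 3). At the low end, Ifi205 stood at 1.44, 1.80 and 1.47 CPM, and Ifi208 at 0.294, 0.424 and 0.480 CPM, which were 8.12, 11.9 and 13.4 expected counts.

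Divided by the length of the longest coding transcript, the WT PBS levels ran from Ifi207 (39.8 ± 1.3 CPM per kb, mean ± SD, n = 3) through Ifi204 (29.8 ± 1.6), Ifi211 (14.4 ± 0.77), Aim2 (7.58 ± 0.37), Ifi203 (6.13 ± 0.49), Ifi209 (4.98 ± 0.39) and Ifi205 (0.972 ± 0.13) to Ifi208 (0.134 ± 0.032). No neighbours in this order overlapped in their libraries. The order in KO PBS was the same, but there Ifi211 (9.36 to 12.9 CPM per kb) overlapped with Aim2 (8.27 to 9.41), and Ifi203 (5.02 to 6.15) with Ifi209 (5.23 to 5.92).

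LPS raised every member in WT PM. All 8 of 8 were called higher (edgeR quasi-likelihood test, adjusted p under 0.05), where 36.5% of the 12064 genes tested were called higher, and for all 8 the WT LPS libraries lay above the WT PBS libraries, as they did for 37.2% of genes. Their median log2 fold change was 5.03, against -0.05 over all genes. The range was wide, from 2.08 for Ifi207 to 9.76 for Ifi205. In bulk RNA, here and in the later comparisons, a change in the number of cells of a type and a change in RNA per cell cannot be told apart.

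Ifi205, the member closest in sequence to Ifi211, had the largest rise. Its WT LPS libraries stood at 1146, 1569 and 1380 CPM against 1.44 to 1.80 in WT PBS. This was a 868-fold rise (log2 9.76 ± 0.17 SE, adjusted p = 8.05e-17), the 27th largest of the 12064 log2 fold changes. Ifi208, which carries a pyrin domain, stood at 144, 164 and 150 CPM in WT LPS, all above the WT PBS libraries. Its pooled ratio of LPS to PBS was 387 (exact 95% counting interval 275 to 563), and its rank was 47. Ifi208 passed the low-count filter through its LPS libraries, so its calls with LPS are no support and the other 7 members carry the counts of 8 in both genotypes.

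The rise of Ifi209, Ifi211, Ifi203 and Ifi204 was smaller on the log2 scale and still above most genes. Ifi209, the mouse Pyhin1 (IFIX) counterpart, went from 17.9, 17.9 and 15.6 CPM to 746, 1011 and 823 (log2 5.65 ± 0.11 SE, adjusted p = 6.18e-17). Ifi211 went from 26.7, 26.2 and 24.1 CPM to 870, 1077 and 992 (log2 5.25 ± 0.12 SE, adjusted p = 8.63e-16). Ifi203 rose by log2 4.80 ± 0.093 SE, from 21.2 to 24.8 CPM in WT PBS to 593, 714 and 618 CPM in WT LPS. For Ifi204, the IFI16 relative, the WT LPS libraries stood at 1170, 1520 and 1401 CPM (log2 4.32 ± 0.096 SE, adjusted p = 1.6e-16). In each of these genes the lowest LPS library was WT LPS replicate 1, and it remained far above every PBS library.

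Ifi207 and Aim2 responded least. Ifi207 reached 538, 616 and 572 CPM in WT LPS (log2 2.08 ± 0.072 SE, adjusted p = 5.78e-14). Aim2, the inflammasome receptor of the family, went from 21.0, 20.8 and 22.7 CPM to 84.1, 100.3 and 92.0 (log2 2.10 ± 0.077 SE, adjusted p = 1.15e-13). Both groups of libraries were again fully separate. Without WT LPS replicate 1 all 8 members remained called, and the log2 fold changes were 9.87 for Ifi205, 8.62 for Ifi208, 5.74 for Ifi209, 5.33 for Ifi211, 4.85 for Ifi203, 4.41 for Ifi204, 2.16 for Aim2 and 2.12 for Ifi207.

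**Figure D1:**
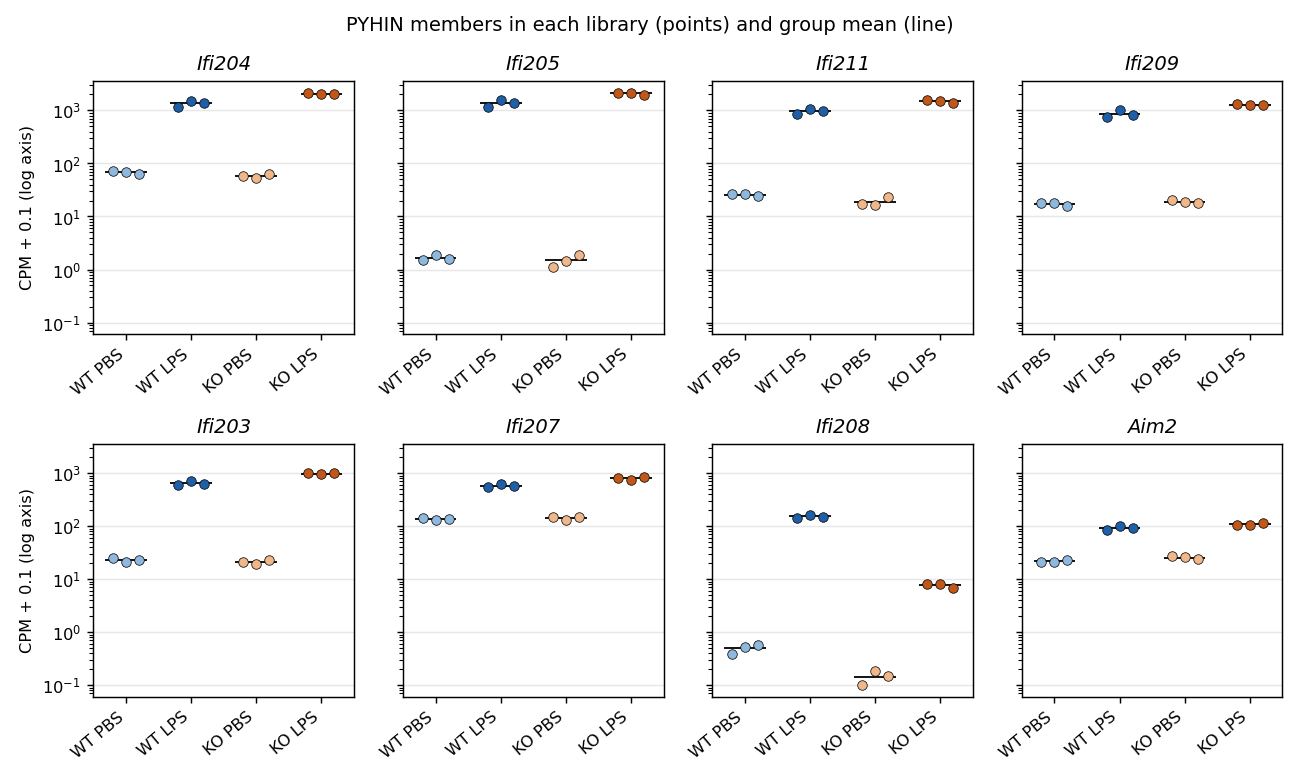
Level of each PYHIN member in each of the 12 libraries (points, 3 per group) with the group mean (line), as CPM + 0.1 on a log axis. All LPS libraries lie above all PBS libraries of the same genotype for the 8 members, and Ifi208 is the member in which KO LPS (6.60 to 8.02 CPM) lies below WT LPS (144 to 164 CPM).

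In KO-labelled PM the response had the same direction. All 8 of 8 members were called higher, where 38.8% of genes were, and none of the 8 overlapped between treatments (39.7% of genes were separate in this direction). The median log2 fold change was 5.82, also with Ifi208 set to the bound its floor allows, against -0.04 over all genes. Ifi205 rose by log2 10.56 ± 0.17 SE, Ifi211 by 6.30 ± 0.13, Ifi209 by 6.09 ± 0.11, Ifi203 by 5.54 ± 0.096, Ifi204 by 5.16 ± 0.10, Ifi207 by 2.49 ± 0.073 and Aim2 by 2.08 ± 0.076, with adjusted p from 6.75e-18 to 9.57e-14. Ifi208 in KO PBS was at or under the floor, at 0, 2.43 and 1.46 expected counts. Its pooled ratio of LPS to PBS was 161 with a counting interval of 62.2 to 593, which overlaps the interval of the WT ratio. The fitted log2 value of 7.53 ranged from 6.77 with totals alone to 8.33 without KO PBS replicate 2.

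**Figure D2:**
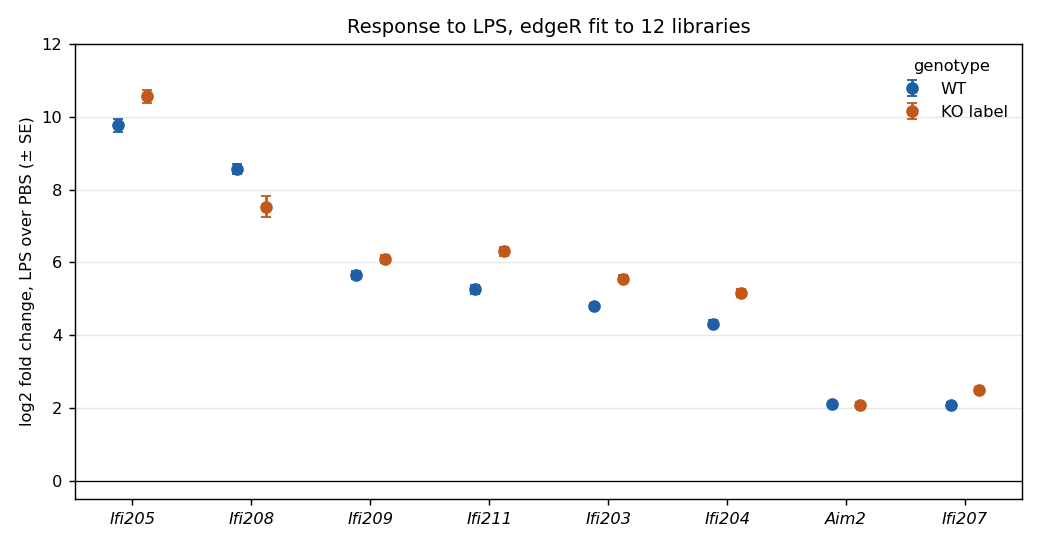
Log2 fold change of LPS over PBS for each member in WT and in KO-labelled PM, with SE (vertical axis), ordered by the WT value. Ifi205 leads in both genotypes (9.76 and 10.56), and Ifi207 and Aim2 have the smallest values. The KO value of Ifi208 rests on 4 pooled counts in KO PBS.

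The make-up of the family changed with this response. In WT LPS, Ifi204 held 22.6% ± 0.59 of the summed member counts, Ifi205 22.6% ± 0.80, Ifi211 16.3% ± 0.32, Ifi209 14.2% ± 0.65, Ifi203 10.7% ± 0.49 and Ifi207 9.59% ± 0.54 (SD, n = 3 each). Ifi205 had held 0.535% ± 0.078 (SD, n = 3) in WT PBS. Ifi208 made up 2.55% ± 0.16 of the WT LPS sum and 0.0848% ± 0.0069 of the KO LPS sum (SD, n = 3 each). The sum itself was 305, 290.0 and 287 CPM in WT PBS, 295, 264 and 299 in KO PBS, 5292, 6771 and 6029 in WT LPS, and 9094, 8918 and 8566 in KO LPS. The KO LPS sums lay above the WT LPS sums, whereas the PBS sums overlapped.

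Per kb of transcript, Ifi205 (846 ± 131 CPM per kb, mean ± SD, n = 3) led in WT LPS, followed by Ifi204 (594 ± 78), Ifi211 (549 ± 58), Ifi209 (250 ± 40), Ifi203 (171 ± 17), Ifi207 (168 ± 11), Ifi208 (51.1 ± 3.4) and Aim2 (32.4 ± 2.9). Ifi204 and Ifi211 overlapped in their libraries, as did Ifi203 and Ifi207, so these pairs have no firm order. In KO LPS, Aim2 (38.0 ± 1.5 CPM per kb) stood above Ifi208 (2.52 ± 0.27), which was last.

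**Figure D3:**
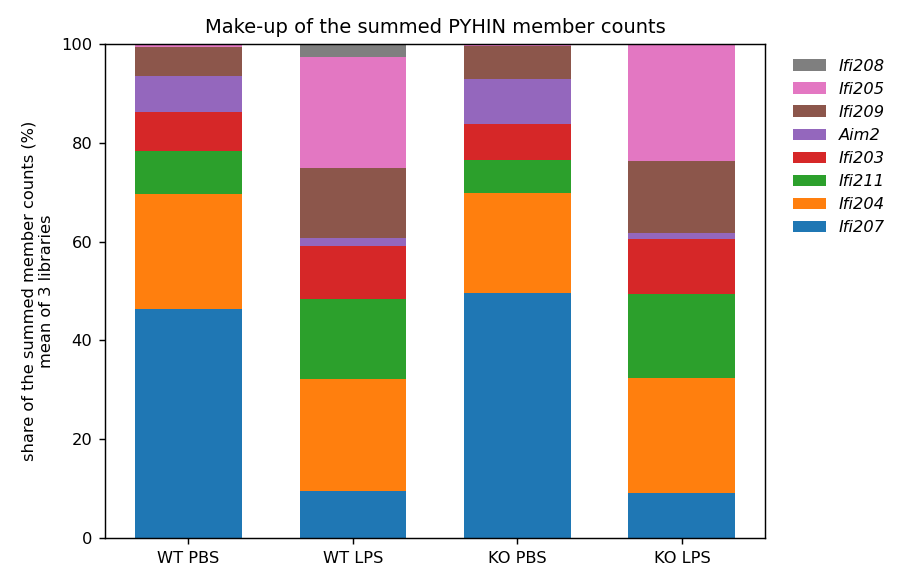
Share of each member in the summed counts of the 8 members, as the mean of 3 libraries per group (vertical axis, %). Ifi207 makes up 46.3% in WT PBS and 9.59% in WT LPS, while Ifi205 goes from 0.535% to 22.6%.

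The comparison of genotypes under PBS asks whether resting levels differed by the label. Of the 7 members other than Ifi208, 2 were called, Aim2 higher and Ifi211 lower, where 25.3% of all genes were called. The share of called members was thus near that of all genes. Aim2 stood at 26.7, 26.3 and 23.5 CPM in KO PBS against 20.8 to 22.7 in WT PBS (log2 0.24 ± 0.078 SE, adjusted p = 0.0302). Ifi211 stood at 17.2, 16.7 and 23.0 CPM against 24.1 to 26.7 (log2 -0.44 ± 0.11 SE, adjusted p = 0.00967). Neither pair of groups overlapped.

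The other 5 did not pass the test under PBS. Ifi204 stood at 56.7, 54.0 and 63.3 CPM in KO PBS, all below WT PBS (log2 -0.24 ± 0.087 SE, adjusted p = 0.0551), and Ifi209 at 20.4, 18.5 and 18.0 CPM, all above it (log2 0.15 ± 0.10 SE, adjusted p = 0.34). Counting these, 4 of the 7 were separate between genotypes, as were 48.1% of all genes. Ifi203 (log2 -0.13 ± 0.088 SE), Ifi205 (-0.18 ± 0.24) and Ifi207 (0.06 ± 0.070) overlapped. Of the 2 calls none was left when WT PBS replicate 1 was removed, nor when replicate 1 or replicate 2 of KO PBS was, and 1 was left without WT PBS replicate 2. The count was 3, with Ifi204 lower (adjusted p = 0.00505), without WT LPS replicate 1.

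Under LPS all 7 members other than Ifi208 were higher in KO-labelled PM, where 22.1% of genes were called higher. The KO LPS libraries lay above the WT LPS libraries for all 7, as they did for 24.2% of genes. The median difference was 0.60 on the log2 scale, against 0.00 over all genes, and 6 of the 7 values lay between 0.48 and 0.62.

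Ifi205 stood at 2176, 2174 and 1945 CPM in KO LPS against 1146 to 1569 in WT LPS (log2 0.62 ± 0.10 SE, adjusted p = 0.000242). Ifi203 stood at 991, 972 and 988 CPM against 593 to 714 (log2 0.62 ± 0.078 SE, adjusted p = 1.34e-05). For Ifi211 the values were 1551, 1531 and 1406 CPM against 870 to 1077 (log2 0.61 ± 0.098 SE, adjusted p = 0.00015). These 3 genes had a KO level close to 1.5 times the WT level.

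For Ifi204, KO LPS libraries held 2120, 2082 and 2011 CPM against 1170 to 1520 (log2 0.60 ± 0.083 SE, adjusted p = 3.22e-05). Ifi209 held 1321, 1292 and 1267 CPM against 746 to 1011 (log2 0.59 ± 0.089 SE, adjusted p = 8.1e-05). Ifi207 held 821, 754 and 828 CPM against 538 to 616 (log2 0.48 ± 0.069 SE, adjusted p = 5.24e-05). The WT range was wider than the KO range for each of the 7 members.

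Aim2 differed least, with 105.8, 105.1 and 112.6 CPM in KO LPS against 84.1 to 100.3 in WT LPS (log2 0.23 ± 0.072 SE, adjusted p = 0.0178). It was not called in 4 of 22 settings, where adjusted p ranged up to 0.153. Without WT LPS replicate 1, the lowest WT library, all 7 remained called. The values were then 0.56 for Ifi203, 0.53 for Ifi211, 0.51 for Ifi205, 0.50 for Ifi204 and for Ifi209, 0.43 for Ifi207, and 0.17 for Aim2 (adjusted p = 0.0461).

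Ifi208 was chosen for its genotype difference, so its values are a description with no test. In WT LPS it stood at 144, 164 and 150 CPM (2491, 2878 and 2667 expected counts), and in KO LPS at 7.95, 8.02 and 6.60 CPM (129.5, 131.1 and 106.1 expected counts). The pooled WT level was 20.3 times the KO level (counting interval 18.3 to 22.6). The log2 difference was -4.34 ± 0.097 SE, the 30th lowest of 12064, and lay between -4.43 and -4.25 in all 21 settings that kept the gene as its own row.

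Under PBS the Ifi208 level was 0.294, 0.424 and 0.480 CPM in WT and 0, 0.0853 and 0.0517 CPM in KO-labelled PM, 33 against 4 pooled counts. The WT level was 8.42 times the KO level with a counting interval of 2.99 to 32.7. The KO PBS libraries were all under the floor of 3 counts. The log2 difference of -3.30 became -4.08 without KO PBS replicate 2 and -2.75 without KO PBS replicate 1. The difference in LPS response between genotypes was -1.04 for Ifi208, built from the same values, and ran from -1.60 without KO PBS replicate 1 to -0.26 without KO PBS replicate 2.

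**Figure D4:**
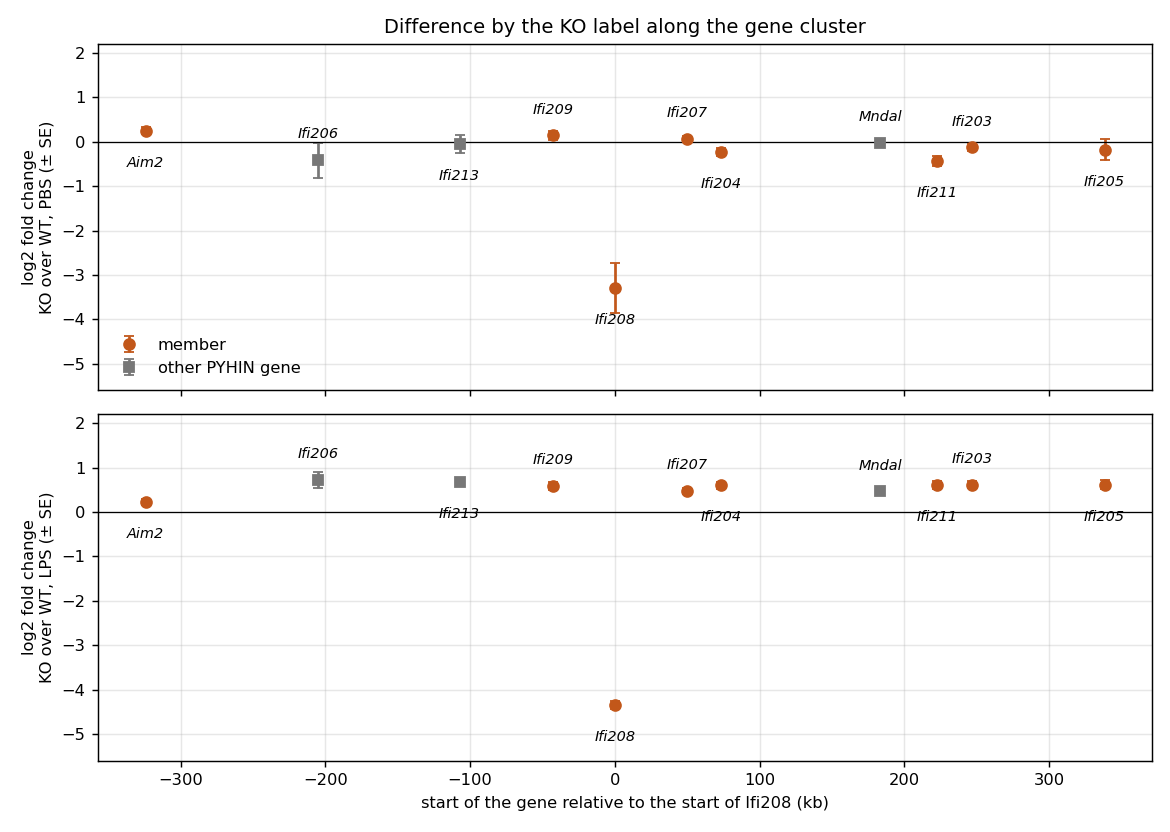
Log2 fold change of KO over WT with SE, under PBS (top) and LPS (bottom), for 11 PYHIN genes by the distance of their start from that of Ifi208 in kb. Ifi208 (-3.30 and -4.34) is the low point in both panels, and the genes on both sides lie between -0.44 and 0.24 under PBS and between 0.23 and 0.73 under LPS. Ifi214, at 0 in all PBS libraries, is not drawn.

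The LPS response was larger in KO-labelled than in WT PM for 6 of the 7 other members by the interaction test, where 9.78% of all genes were called in that direction (18% in either). The differences in log2 response were 1.05 ± 0.15 SE for Ifi211 (adjusted p = 0.000201), 0.84 ± 0.12 for Ifi204 (0.000179), 0.80 ± 0.26 for Ifi205 (0.0491), 0.74 ± 0.12 for Ifi203 (0.000419), 0.44 ± 0.14 for Ifi209 (0.0342) and 0.41 ± 0.099 for Ifi207 (0.00841). Aim2 had a value of -0.02 ± 0.11 SE (adjusted p = 0.946). For Ifi211 and Ifi204 the lower KO PBS level adds to this difference by construction, since both genotype contrasts enter it. Ifi205 was called in 8 of 21 settings and Ifi209 in 12 of 21, whereas Ifi203, Ifi204 and Ifi211 were called in all 21. Without WT LPS replicate 1 the same 6 were called, at 0.97 for Ifi211, 0.74 for Ifi204, 0.69 for Ifi203 and Ifi205, 0.37 for Ifi207 and 0.35 for Ifi209, and Aim2 had -0.08. These contrasts share libraries with the genotype and LPS comparisons and are no separate evidence.

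The tables hold estimated counts with decimals, so reads of similar copies may have been shared between genes. Each member carried decimals in all 12 libraries, except Ifi208, which did so in 11 and was 0 in KO PBS replicate 1. Windows of 50 bases, the read length, were therefore taken from the longest coding transcript of each gene and matched, on either strand, to every GENCODE transcript of the other family genes, the pseudogene Ifi203-ps included. For Ifi211, 72.9% of windows stood unchanged in another family transcript, mainly that of Ifi205. The share was 49.6% for Ifi205, 34.7% for Ifi209 (all with Ifi214), 29.9% for Ifi204, 25.9% for Ifi208, 10.6% for Ifi203 (of its 393 shared windows, 201 stood in Ifi203-ps), 5.31% for Ifi207 and 0% for Aim2.

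Ifi208 shared 21.0% of its windows with Ifi213 and 10.8% with Ifi206, and none with another member. Both of these genes had the opposite genotype difference under LPS. Ifi213 stood at 187, 243 and 221 CPM in WT LPS and 356, 345 and 345 CPM in KO LPS (log2 0.68 ± 0.092 SE, adjusted p = 2.95e-05). Ifi206 stood at 408, 489 and 425 CPM against 733, 699.9 and 760 (log2 0.73 ± 0.18 SE, adjusted p = 0.00885). Neither overlapped between genotypes. Without WT LPS replicate 1 the differences were 0.59 for Ifi213 and 0.68 for Ifi206, both still called.

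Summed over Ifi208, Ifi213 and Ifi206, the level was 739, 897 and 797 CPM in WT LPS and 1097, 1053 and 1111 CPM in KO LPS. This sum was chosen after the values had been seen. It was higher in KO LPS by log2 0.43, where Ifi208 alone was lower by 4.34. The Ifi213 and Ifi206 levels outweigh that of Ifi208, so they fixed this sign, and the sum is no separate result on Ifi208. Under PBS the sum was 4.27, 4.58 and 4.18 CPM in WT and 2.28, 2.69 and 5.17 CPM in KO-labelled PM, so the groups overlapped (log2 -0.46, against -3.30 for Ifi208 alone). Ifi213 and Ifi206 had PBS values of -0.05 and -0.41, neither called. Between the WT LPS and KO LPS means, the Ifi208 row was lower by 145 CPM, and the Ifi213 and Ifi206 rows together were higher by 421 CPM. The 7 other members, which share no windows with Ifi208, were also higher in KO LPS, by log2 0.23 to 0.62. RefSeq also lists 1 shared older name, E430029J22Rik, for Ifi208 and Ifi213. Whether reads were assigned differently between these rows in the 2 genotypes was not tested.

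**Figure D5:**
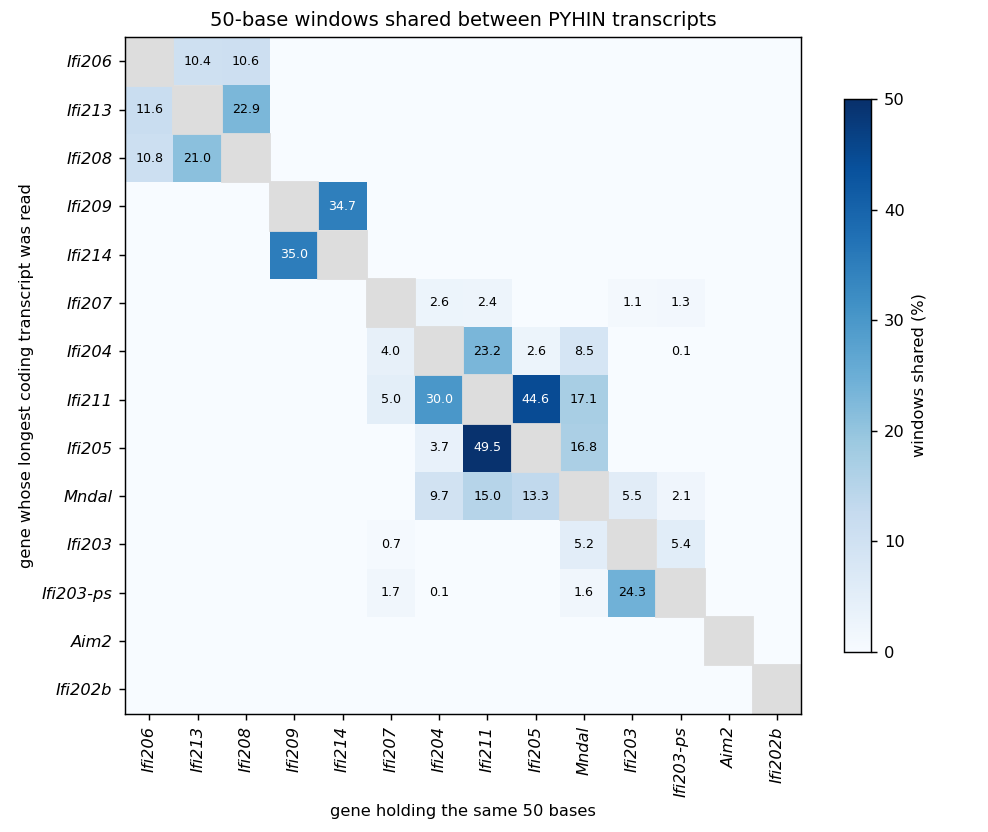
Share of the 50-base windows of each PYHIN transcript (rows) that stand unchanged in a transcript of another family gene (columns), in %; blank cells are 0. Ifi208 shares windows with Ifi213 (21.0%) and Ifi206 (10.8%), Ifi209 with Ifi214, and Ifi204, Ifi205, Ifi211 and Mndal form a further group, while Aim2 and Ifi202b share none.

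Of 5 further family genes in the tables, 4 passed the filter, Ifi214 only through its LPS libraries, which fixed its call. The other 3 (Ifi206, Ifi213 and Mndal) were called higher by LPS in both genotypes (36.5% of all genes in WT and 38.8% in KO-labelled PM). Mndal stood at 592 to 757 CPM in WT LPS and 908 to 973 in KO LPS (log2 0.47 ± 0.078 SE, adjusted p = 0.00017, or 0.38 without WT LPS replicate 1). Ifi214, at 0 in all 6 PBS libraries, stood at 7.03 to 8.96 CPM in WT LPS and 8.04 to 10.5 in KO LPS (log2 0.23 ± 0.14 SE, adjusted p = 0.208). With LPS the KO label went with a higher level in 3 of the 4 (22.1% of all genes). Under PBS, where 25.3% of all genes were called, 0 of the 4 were called by edgeR, 0 had an unadjusted p under 0.05 and 0 were called by DESeq2, and Ifi214 with its 0 counts could not be. Ifi206 was called lower without KO PBS replicate 3, in which it stood at 3.12 CPM against 0.987 and 0.850 in the other KO PBS libraries. Ifi202b was at 0 in 11 of 12 libraries, with 3 counts in WT LPS replicate 3.

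Of the tested genes that neighbour the cluster, only Olfr433, itself near 0 under PBS, lay within 1 Mb of the Ifi208 start. Among 19 neighbours in the tables, 9 were tested. Under PBS 1 was called higher and 5 lower by the KO label (25.3% of all genes were called in either direction), and under LPS 1 higher and 3 lower (41.4%). Vsig8, a little studied surface protein gene more than 1 Mb from Ifi208, was lowest, at log2 -2.31 ± 0.17 SE under PBS (adjusted p = 7.58e-08) and -1.96 ± 0.20 SE under LPS (adjusted p = 1.91e-06). Pigm, which acts in GPI anchor synthesis, was higher under both, by 0.30 ± 0.076 (adjusted p = 0.0086) and 0.46 ± 0.080 (adjusted p = 0.000244).

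Among 14 partners and products of the AIM2 inflammasome, all tested, LPS raised 10 and lowered 2 in WT PM, where 36.5% of all genes were raised, with a median log2 fold change of 3.62. Il1b, the cytokine released after caspase-1 cleavage, went from 0.717 ± 0.13 to 2300 ± 125 CPM (SD, n = 3), and Gbp5, a guanylate-binding protein, from 1.49 ± 0.39 to 1974 ± 154. Pycard, the adaptor that links AIM2 to caspase-1, fell from 51.6 ± 1.4 to 44.4 ± 3.6 CPM (log2 -0.22 ± 0.075 SE, adjusted p = 0.0141), and Hmgb1, a DNA-binding chromatin protein, by 0.92 on the log2 scale. Under PBS 1 of the 14 was higher and 3 were lower by the KO label, where 25.3% of all genes were called. The lower 3 include Gbp2 (log2 -0.80) and Irgm1 (-0.41), both GTPases of the interferon response. Under the KO label 7 of the 14 were higher and 1 lower with LPS, against 22.1% of all genes higher and 41.4% called in either direction. Il1b was higher in KO LPS than in WT LPS, at 8552 ± 311 CPM (log2 1.90 ± 0.25 SE, adjusted p = 0.000256), with a difference in LPS response that did not pass the test (0.90 ± 0.75 SE, adjusted p = 0.477), and Pycard was lower, at 31.2 ± 3.0 CPM (log2 -0.51 ± 0.079 SE, adjusted p = 0.000104). The receptor Aim2 and its adaptor Pycard thus had differences of opposite sign under LPS. Without WT LPS replicate 1 the label differences were 1.91 for Il1b and -0.57 for Pycard, and the fall of Pycard with LPS in WT was -0.16 (adjusted p = 0.0495).

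Of 30 genes of cytosolic DNA sensing, LPS raised 14 and lowered 12 in WT PM (median 0.09), a raised share near the 36.5% of all genes. Zbp1, a sensor of left-handed nucleic acid, and Trex1, a DNA exonuclease, rose most, by log2 5.05 ± 0.19 and 4.51 ± 0.14 SE. By the KO label 3 were higher and 6 lower under PBS (25.3% of all genes were called in either direction), and 9 higher and 6 lower under LPS (41.4%), so the shares called were near those of all genes. Irf7, an interferon regulatory factor, was lowest under PBS, at 44.5 ± 16 against 110.3 ± 10 CPM (log2 -1.31 ± 0.21 SE, adjusted p = 0.00113). Tmem173, which encodes STING, stood at 24.4 ± 1.2 CPM in KO LPS against 46.6 ± 3.1 in WT LPS (log2 -0.93 ± 0.069 SE, adjusted p = 5.91e-08), and Tlr9, the endosomal CpG DNA receptor, at 43.2 ± 9.6 against 99.0 ± 22 CPM (log2 -1.19 ± 0.18 SE, adjusted p = 0.000298). Without WT LPS replicate 1 the difference was -0.98 for Tmem173, and Tlr9 was still called lower (adjusted p = 0.000832).

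Of 14 interferon signalling genes LPS raised 13 and lowered Ifngr1 in WT PM (36.5% of all genes were raised). Ifnb1, among the 13, passed the low-count filter only through its LPS libraries, which fixed its call, so that call is no support. Their median log2 fold change was 2.43, or 2.23 with Ifnb1, which was at 0 in all PBS libraries, set to its bound. Ifnb1 itself had a mean of 0.702 CPM in the WT LPS libraries against 0.903 in those of KO LPS at 6 h. By the KO label 2 were higher and 3 lower under PBS, and 6 higher and 2 lower under LPS, where 25.3% and 41.4% of all genes were called. Jak2, a kinase of the interferon-γ receptor, was highest under LPS, at 836 against 496 CPM (log2 0.75 ± 0.079 SE, adjusted p = 2.17e-06, or 0.74 without WT LPS replicate 1).

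Across the 12 libraries, log2(CPM + 1) of the 7 members other than Ifi208 moved closely together (Pearson r of 0.987 to 1.0 for each pair), whereas Ifi208 had r of 0.767 to 0.830 with them. The libraries fall into treatment groups, so these r values describe the groups and not independent samples. Among 9319 genes, those most like Ifi208 were Il12rb1 (r = 0.997), Csrp1 (0.995), Rubcnl (0.990), Timd4 (0.989) and Rab43 (0.988). Il12rb1, a chain of the IL-12 receptor, had mean levels of 0.239 CPM in WT PBS, 10.1 in WT LPS, 0.0941 in KO PBS and 1.60 in KO LPS. The least like it were Ankrd28 (-0.988), Fam126a (-0.987) and Il7r (-0.984). The mean pattern of all 8 members, Ifi208 included, was matched most closely by Gbp4, Samhd1, Nono, Il27 and Parp8, with r of 0.9996 or more. Since Ifi208 and the other members differ by the label in opposite directions under LPS, this mean is not the pattern of the other members alone. In WT LPS and KO LPS, Samhd1 stood at 2129 and 2168 CPM, Nono at 425 and 422, and Parp8 at 127 and 130. Gbp4 stood at 63.0 and 71.9 CPM, and Il27 at 1002 and 1225.

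Some markers of other cell types also differed by the KO label. Over all genes, 25.3% were called in either direction under PBS and 41.4% under LPS. All 5 fibroblast markers were lower under both treatments, with a sum of 75.1 to 88.6 CPM in WT PBS against 32.9 to 46.2 in KO PBS, and 118 to 132 in WT LPS against 57.0 to 69.5 in KO LPS. Of 5 markers of large resident peritoneal macrophages, 4 were lower and 1 higher under PBS (sums 55.2 to 55.6 against 37.6 to 39.1 CPM), and 3 were lower under LPS (51.8 to 59.7 against 30.2 to 31.4 CPM). Timd4, 1 of these 5, had the mean levels 0.419 CPM in WT PBS, 6.64 in WT LPS, 0.106 in KO PBS and 1.44 in KO LPS. The 5 T cell markers in the tables summed to 8.62 to 13.2 CPM in WT LPS and 3.98 to 4.59 in KO LPS, where 1 of the 2 tested was lower. Under PBS these T cell sums were far lower and overlapped, at 0.448 to 0.679 CPM in WT PBS and 0.461 to 0.735 in KO PBS, with 0 called. The sum thus rose with LPS in both genotypes, and its difference by the label was seen only with LPS. The 5 plasmacytoid dendritic cell markers summed to 99.0 to 111 CPM in WT PBS and 62.9 to 75.5 in KO PBS, with 1 of the 3 tested higher and 1 lower, whereas under LPS the sums overlapped (482 to 617 and 543 to 642 CPM) and 0 of the 3 were called. The 6 mesothelium markers summed to 7.59 to 8.47 CPM in WT PBS against 3.76 to 5.92 in KO PBS (2 lower), and to 8.12 to 9.17 in WT LPS against 6.37 to 7.53 in KO LPS (1 lower). Sums of the 4 monocyte-derived markers were 876 to 1070 CPM in WT PBS and 693 to 781 in KO PBS with 0 called, and overlapped under LPS with 1 higher. Of 8 general macrophage markers, 1 was higher and 1 lower under PBS, and 1 higher and 3 lower under LPS, near the shares of all genes. A conventional dendritic cell marker was lower under PBS and 1 neutrophil marker was higher under LPS, and the 1 B cell marker tested was not called. None of the markers in the tables was at 0 in all libraries. The part of these cells in the Ifi208 difference, or in that of the other members, was not tested.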

How the data were processed

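Per the series record, total RNA of 12 PM cultures was sequenced as single-end reads of 50 bases on a BGISEQ-500. The tables the authors deposited give 1 expected count per gene, an estimate that need not be whole, with no scaling between libraries. The submitters' processing notes name Bowtie2, RSEM 1.3.1 and GRCm38.p6, whereas the methods name STAR and HTSeq. The annotation is not given in the sources used here. Between 24.6% and 26.9% of values per library had decimals.

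Counts were rounded to whole numbers, filtered (filterByExpr), scaled by TMM and fitted over all 12 libraries with edgeR 4.0.16 (quasi-likelihood, robust, two-sided, R 4.3.3, limma 3.58.1), with Benjamini-Hochberg adjustment over 12064 genes. SE is the log2 fold change divided by the square root of F. On simulated data with 200 genes changed by 1 on the log2 scale in the WT LPS comparison (11853 genes), 89% were recovered and 0.017% of the others were called. Pooled ratios carry exact 95% binomial intervals. Python 3.11.15, pandas 2.3.3 and scipy 1.17.1 were used for the rest. Gene numbers matched RefSeq GRCm38.p6 for 16803 of 16920 genes (99.3%), and transcript lengths and windows came from GENCODE M21. No value column lacked a sample (0).

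The members and lists were chosen with earlier results of these data known. All members are named, and from each list only genes among the 2 highest and 2 lowest fold changes of a contrast. Where a plan counted 9 members, Mnda had no row and 8 entered. Ifi208 got no test between genotypes. Alternatives were other scaling (RLE, upper quartile, totals alone), other filters, DESeq2 1.42.0, only the libraries compared, a replicate block, rounding down, a wider family sum and leaving out each library.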

Additional observations from a re-analysis of the deposited data

Results flagged for a closer look

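The LPS response differed between the genotypes for 6 members by the interaction test, where 9.78% of all genes were called higher and 18% in either direction. Not all 6 calls were firm, since Ifi205 was called in 8 of 21 settings and Ifi209 in 12 of 21. The differences in log2 response, KO-labelled minus WT, were 0.742 for Ifi203, 0.842 for Ifi204, 0.799 for Ifi205, 0.415 for Ifi207, 0.442 for Ifi209 and 1.048 for Ifi211, each larger in KO-labelled PM. The gap test for a single outlying library needs groups of 4 or more and was not run on these groups of 3.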

How the results depend on the processing

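The counts of members changed by LPS (8 in WT and 8 in KO-labelled PM) were the same in every alternative, except that both were 7 with a minimum of 10 counts in every library, which leaves no Ifi208 row. The count by the KO label under LPS (7) was 6 or 7 and its leave-one-out range 6 to 7. The count under PBS (2) ranged from 0 to 3 when a library was left out. The interaction count (6) ranged from 4 to 6 when a library was left out and was 3 with totals alone, where Ifi207, Ifi209 and Ifi205 lost their calls. Against TMM, totals alone moved the median of all genes by -0.66 (WT) and -0.80 (KO) in the LPS contrasts, and upper-quartile scaling by -0.31 and -0.36. The summed members rose with LPS by log2 4.35 in WT and 4.95 in KO-labelled PM, which became 4.04 and 4.60 with upper-quartile scaling, 3.69 and 4.15 with totals alone, and 4.51 and 5.12 when every family gene was summed (leave-one-out 4.27 to 4.44 and 4.89 to 4.99). Their difference by the KO label under PBS was 0.0081 with totals alone and -0.0588 to 0.0413 when a library was left out (0.0158 without WT PBS replicate 1, 0.0413 without KO PBS replicate 2), so it has no firm sign, and their interaction was 0.46 with totals alone. The sign also turned for Ifi205 under PBS (leave-one-out -0.3929 to 0.0294, above 0 without KO PBS replicate 1), and for the Aim2 interaction (-0.0979 to 0.0493, above 0 without replicate 2 of WT PBS, WT LPS or KO LPS, and 0.0069 and 0.0039 without the first and last of these). Summing Ifi208 with Ifi213 and Ifi206, chosen after seeing the data, turned the sign under LPS (0.43) and of the interaction (0.88), but not under PBS (-0.46). The Ifi213 and Ifi206 rows outweigh that of Ifi208, so the turned signs follow theirs and are no check on Ifi208. The cause of the Ifi208 difference was not tested. The 9 DNA sensing genes called under PBS became 14 with only the libraries compared, a fit in which 4627 of 11658 genes were called (3058 of 12064 in the main fit). The labels tie same-numbered libraries by a number only (r of -0.434 to 0.383 over 18 pairs, 8 above 0.1, of which 6 are all those of replicate 2). Whether the replicate 2 libraries share more than a number was not tested. With the replicate block the counts were 8, 8, 2, 7 and 6. Ifi208 under PBS rests on at most 13.4 expected counts per library.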
